A study of Homo sapiens with 6 samples.

Results

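Lysosomes are the acidic compartments in which cells digest proteins, lipids and sugars, and autophagy is the route that wraps cytoplasm in a double membrane and delivers it to them. Their genes encode luminal hydrolases, proteins of the limiting membrane with the proton pump (the V-ATPase), and factors that build and load autophagosomes. Many lysosomal genes carry an E-box in the promoter, the CLEAR element, that is bound by TFEB, a transcription factor that moves into the nucleus when mTORC1 at the lysosome is inactive. A set of 32 such genes was chosen by symbol, out of 60605 genes in the count table. By role, 14 encode luminal hydrolases and their cofactors, 7 membrane and pump proteins, 10 autophagy proteins, and the last is TFEB itself.

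The genes were followed in HuCCT-1 cells, a line grown from a human bile duct cancer (cholangiocarcinoma). The treated cells received JNJ-64619178 (JNJ), an inhibitor of the arginine methyltransferase PRMT5, at 6 nM over 4 days, and the controls an equal volume of the solvent DMSO, with 3 libraries of polyadenylated RNA in each group. Both groups shared the line and its serum-containing medium, so all values describe 1 cell line, and the labels do not say whether replicates were separate cultures. The p-values therefore measure the spread between these libraries, which may be technical. Total counts per library ran from 23931991 to 28224911 with JNJ and from 28133746 to 30691914 with DMSO. Levels are CPM, counts scaled to library size after TMM normalization, and CPM per kb of exon where genes are set against each other.

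Of the markers of bile duct epithelium, 8 of 9 passed the filter on low counts. Of these 4 fell and 1 rose at an edgeR adjusted p under 0.05 (62.5%, beside 37.1% of all genes tested). Summed levels of the markers were 4571 to 4838 CPM with JNJ and 5645 to 5919 CPM with DMSO. SPP1 stayed at or below 0.145 CPM in every library. Summed leukocyte markers lay at 5.64 to 6.44 CPM with JNJ and 3.55 to 4.43 CPM with DMSO, with MS4A1 and TYROBP at 0 and PTPRC at most 0.0424 CPM. Most of that sum was CD14, which rose (3.40 ± 0.153 CPM with JNJ, 2.36 ± 0.468 CPM with DMSO, edgeR adjusted p = 0.0266), and CSF1R, which did not pass (1.86 ± 0.26 CPM with JNJ, 1.22 ± 0.349 CPM with DMSO, adjusted p = 0.0585). Summed fibroblast and endothelial markers lay at 1.95 to 2.64 CPM with JNJ and 1.19 to 1.68 CPM with DMSO. Hepatocyte markers summed to 354.8 to 391.9 CPM with JNJ and 338.6 to 353.5 CPM with DMSO, nearly all of it SERPINA1, with ALB at or below 0.366 CPM. Mitochondrially encoded genes took 16.8% to 18.9% of the counts with JNJ and 17.8% to 20.6% with DMSO. The part of these shifts in the results was not tested, and in bulk RNA fewer cells of a type and less RNA per cell cannot be told apart.

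All 32 genes passed the filter on low counts, with 95 to 40866 counts per library. With JNJ, 13 fell and 6 rose past an adjusted p of 0.05 (edgeR's quasi-likelihood test, Benjamini-Hochberg over all 17371 genes tested), and 13 did not pass. That is 59.4% of the set, beside 37.1% of all genes tested (20.0% rose and 17.1% fell) and 40.8% of the protein-coding genes tested. The set was chosen with earlier results of these data known, so its share is a description and not a test. The changes were small: the median log2 fold change of the set was -0.06, beside 0.001 over all genes, and only VMP1 and GUSB passed 1.5-fold. Among the genes called lower, the mean CPM of CTSA fell by 9.36%, the smallest change, and that of VMP1 fell by 34.4%, the largest.

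**Figure D1:**
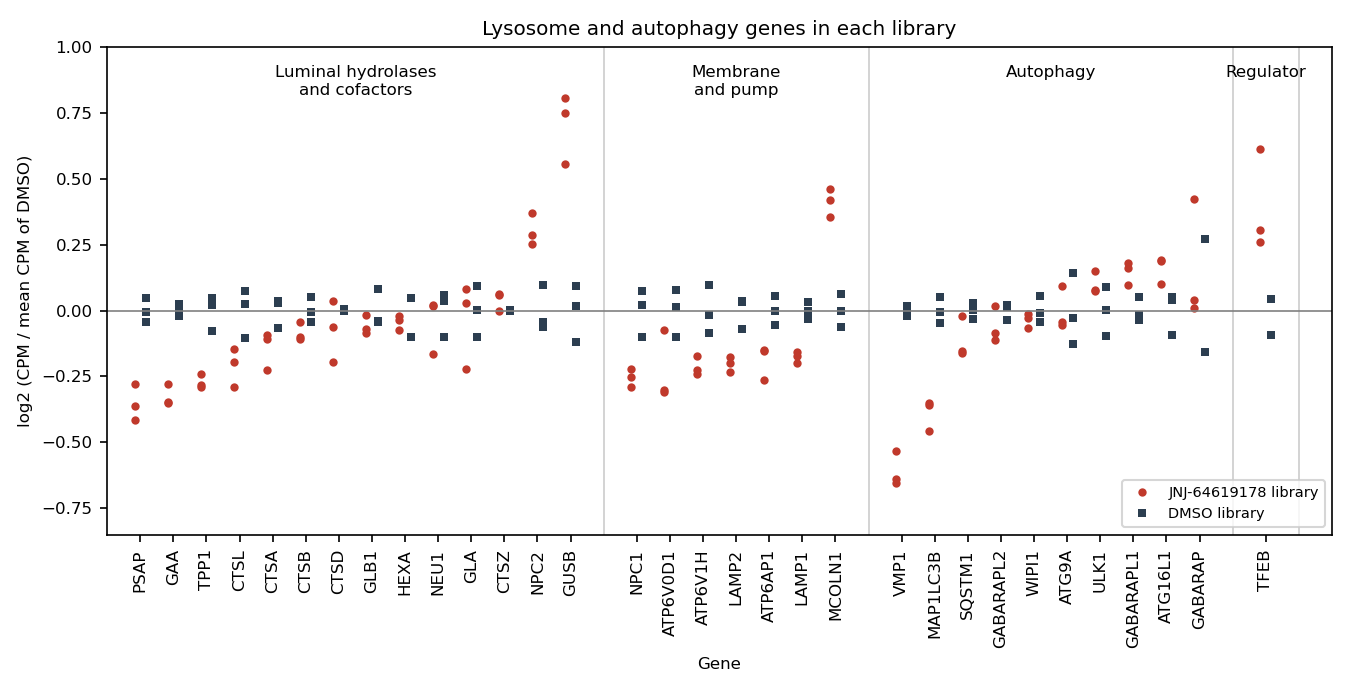
Each point is the CPM of a gene in a library over the gene's mean in the DMSO libraries, on a log2 axis, with JNJ libraries (circles) left of DMSO libraries (squares) and genes ordered by fold change within each class. PSAP, GAA, TPP1, VMP1 and MAP1LC3B lie below their DMSO libraries in all 3 JNJ libraries, and GUSB, NPC2, MCOLN1 and TFEB lie above.

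The JNJ libraries lay wholly below the DMSO libraries in 12 genes and wholly above in 6, beside 22.2% and 24.7% of all genes tested (47.0% in either direction). Among the 13 genes that fell, JNJ replicate 1 was the lowest JNJ library in 10 and DMSO replicate 3 the lowest DMSO library in 8.

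Promoter sequences are shown for 5 genes: GAA and LAMP1 fell, MCOLN1 rose, VMP1 had the largest fall of the set and GUSB the largest rise. Each runs 5′ to 3′ on the gene's strand from 250 bases before the RefSeq transcription start to 25 bases after it (GRCh38.p14), with CACGTG in capitals.
GAA (chr17:80101331-80101605, plus strand): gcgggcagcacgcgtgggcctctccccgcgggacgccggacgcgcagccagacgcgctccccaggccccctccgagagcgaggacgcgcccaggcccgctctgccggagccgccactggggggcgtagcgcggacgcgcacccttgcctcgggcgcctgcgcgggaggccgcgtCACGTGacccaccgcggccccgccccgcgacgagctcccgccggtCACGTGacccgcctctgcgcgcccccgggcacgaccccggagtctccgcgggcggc
LAMP1 (chr13:113296989-113297263, plus strand): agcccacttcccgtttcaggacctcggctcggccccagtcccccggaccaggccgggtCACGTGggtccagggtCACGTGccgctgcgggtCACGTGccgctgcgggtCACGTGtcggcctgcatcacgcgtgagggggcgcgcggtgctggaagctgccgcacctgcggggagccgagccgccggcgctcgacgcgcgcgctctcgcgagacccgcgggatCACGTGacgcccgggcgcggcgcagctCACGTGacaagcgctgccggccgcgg
MCOLN1 (chr19:7522374-7522648, plus strand): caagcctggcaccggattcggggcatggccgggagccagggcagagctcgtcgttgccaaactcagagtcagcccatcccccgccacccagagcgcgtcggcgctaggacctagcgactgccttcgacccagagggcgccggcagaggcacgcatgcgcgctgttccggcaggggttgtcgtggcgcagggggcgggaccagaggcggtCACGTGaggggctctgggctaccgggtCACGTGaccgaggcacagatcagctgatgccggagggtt
VMP1 (chr17:59707404-59707678, plus strand): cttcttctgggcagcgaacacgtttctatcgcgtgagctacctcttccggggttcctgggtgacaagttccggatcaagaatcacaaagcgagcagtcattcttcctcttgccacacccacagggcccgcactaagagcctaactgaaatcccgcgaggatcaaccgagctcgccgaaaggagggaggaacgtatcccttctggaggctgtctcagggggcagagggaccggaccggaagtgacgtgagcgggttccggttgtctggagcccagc
GUSB (chr7:65982189-65982463, minus strand): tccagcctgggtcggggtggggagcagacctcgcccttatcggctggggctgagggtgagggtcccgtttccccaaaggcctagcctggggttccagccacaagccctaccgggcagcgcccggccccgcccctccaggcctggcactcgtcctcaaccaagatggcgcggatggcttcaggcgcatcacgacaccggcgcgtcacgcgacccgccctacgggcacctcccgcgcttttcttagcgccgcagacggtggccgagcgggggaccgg

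CACGTG, the palindromic core of the CLEAR element, was searched in the RefSeq windows of 250 bases before to 50 bases after each start, which the table held for 27 of the 32 genes. CTSB, HEXA, PSAP, LAMP2 and ATP6V1H had no entry. The motif was present in 7 of the 27 (25.9%), against 8.77% of the 27305 genes with a window. All 7 also held TCACGTG on either strand, the longer form that contains it, which 4.49% of all genes held. The holders were the luminal genes GAA, CTSA, CTSD and NEU1 and the membrane and pump genes LAMP1, MCOLN1 and ATP6V0D1. LAMP1 had 6 copies, and GAA, CTSA and MCOLN1 had 2 each. None of the 10 autophagy genes held it in their windows. Of the holders, GAA, CTSA, LAMP1 and ATP6V0D1 fell, MCOLN1 rose, and CTSD and NEU1 did not pass. Among genes with a window, the motif was held by 4 of 10 that fell (40%), 1 of 6 that rose (16.7%) and 2 of 11 that did not pass (18.2%). PSAP, LAMP2 and ATP6V1H, which fell, had no window. The part of the motif in these responses was not tested.

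**Figure D2:**
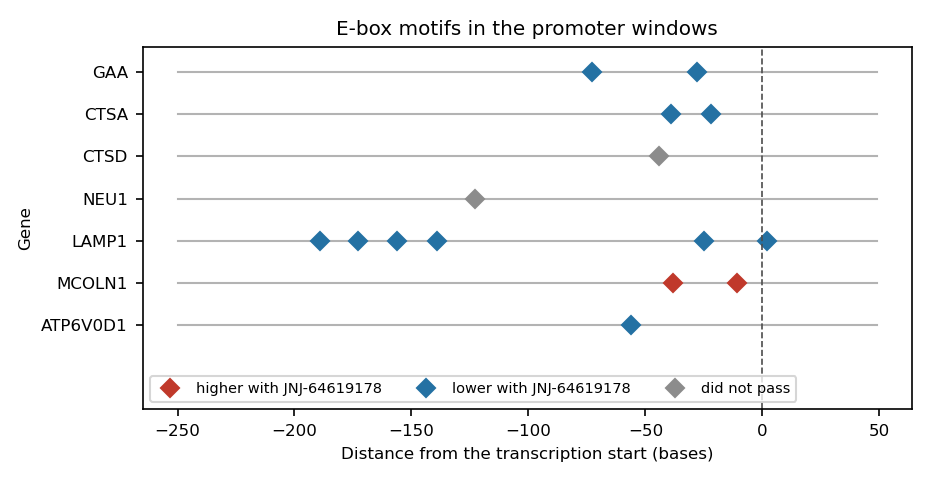
Positions of CACGTG (diamonds, at the motif's centre) in the promoter windows of the 7 genes that hold it, as distance in bases from the transcription start (dashed line), coloured by the response to JNJ. The 2 copies in MCOLN1, which rose, begin 41 and 14 bases before the start. Those in GAA, which fell, begin 76 and 31 bases before it.

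Among luminal proteins, 5 of 14 fell and 2 rose, with a median log2 fold change of -0.06. Over all genes tested 17.1% fell and 20.0% rose, or 37.1% in either direction, and 40.8% of the protein-coding genes tested passed. PSAP, whose product is cut into the saposins that present sphingolipids to hydrolases, was the most abundant gene of the set per length. It had 992.5, 1091 and 1031 CPM with JNJ, against 1369, 1321 and 1284 CPM with DMSO. The groups did not overlap, and the log2 fold change was -0.35 (SE 0.05, edgeR adjusted p = 2.5e-06). PSAP (ENSG00000197746, chromosome 10, 71816298 to 71851375, GENCODE 29 on GRCh38) made up 42.0% ± 0.567 of the summed CPM of the luminal genes with JNJ and 46.9% ± 0.371 with DMSO (SD, n = 3 each).

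GAA encodes the acid alpha-glucosidase that degrades lysosomal glycogen and is deficient in Pompe disease. It had 141.4, 148.2 and 141.1 CPM with JNJ, against 183.1, 177.2 and 179.8 CPM with DMSO, so that every JNJ library was lower. Its log2 fold change was -0.33 (SE 0.04, edgeR adjusted p = 2.33e-06). The gene lies on chromosome 17 at 80101556 to 80119879. TPP1, a peptidase lost in a neuronal ceroid lipofuscinosis, averaged 98.6 ± 1.78 CPM with JNJ and 119 ± 5.34 CPM with DMSO (edgeR adjusted p = 6.64e-05). The cysteine protease CTSL averaged 68.2 ± 3.48 CPM with JNJ and 78.9 ± 4.93 CPM with DMSO (adjusted p = 0.00385). CTSA is the protective protein that forms a complex with the sialidase NEU1 and the beta-galactosidase GLB1. It fell by 0.14 on the log2 scale (edgeR adjusted p = 0.0229). That call was lost without JNJ replicate 1 (log2 fold change -0.10, adjusted p = 0.111), DMSO replicate 1 (0.0905) or DMSO replicate 2 (0.0926), and 17.7% of its exonic bases overlap NEURL2 on the other strand. Its partners NEU1 (log2 fold change -0.04, 95% interval -0.16 to 0.08) and GLB1 (-0.06, -0.17 to 0.05) did not pass.

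GUSB, the beta-glucuronidase that is widely used as a reference gene in quantitative PCR, went the other way and showed the largest rise of the set. It had 42.5, 50.6 and 48.5 CPM with JNJ, against 26.6, 29.3 and 30.8 CPM with DMSO. The lowest JNJ library was well above the highest DMSO library, and the fold was 1.63 (log2 fold change 0.71, SE 0.07, edgeR adjusted p = 1.11e-08). GUSB (ENSG00000169919) lies on chromosome 7 at 65960684 to 65982314 and has 19 annotated pseudogenes in the table. Their summed level was 23.1 ± 0.758 CPM with JNJ and 24.8 ± 0.812 CPM with DMSO (SD, n = 3 each). Reads could have been shared among these copies, so the level of GUSB is uncertain, and the part of such sharing in its rise was not tested.

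NPC2, the soluble carrier that hands cholesterol to the membrane protein NPC1, rose as well. It had 116.2, 119 and 126.3 CPM with JNJ, against 94.8, 93.6 and 104.5 CPM with DMSO (log2 fold change 0.30, SE 0.05, edgeR adjusted p = 4.49e-05). All JNJ libraries lay above all DMSO libraries. The other luminal genes did not pass: the cathepsins CTSB (-0.08), CTSD (-0.07) and CTSZ (0.04), the alpha-galactosidase GLA (-0.03) and the hexosaminidase subunit HEXA (-0.04). CTSD passed without JNJ replicate 2 (log2 fold change -0.13, adjusted p = 0.0491), and 41.7% of its exonic bases are shared with another gene on the same strand.

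All 7 membrane and pump genes passed the test, 6 lower and 1 higher, with a median log2 fold change of -0.20. Of all genes tested 37.1% passed, and 17.1% passed as lower. LAMP1 and LAMP2 encode the heavily glycosylated proteins that line the lysosomal membrane. LAMP1 averaged 240.6 ± 3.62 CPM with JNJ and 271.8 ± 5.99 CPM with DMSO (edgeR adjusted p = 0.0021). LAMP2 averaged 100.9 ± 2.08 CPM with JNJ and 116.1 ± 4.79 CPM with DMSO (adjusted p = 0.00133). NPC1, which exports cholesterol from the lysosome, averaged 85.9 ± 2.13 CPM with JNJ and 102.4 ± 6.31 CPM with DMSO (adjusted p = 0.000309). The partners in cholesterol export thus moved in opposite directions. The ratio of NPC2 to NPC1 CPM was 1.40 ± 0.0293 with JNJ and 0.959 ± 0.119 with DMSO (SD, n = 3 each), which restates the separate changes of both genes.

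The pump genes of the set fell by similar amounts, unlike the 17 other V-ATPase subunits tested (median log2 fold change 0.005, 3 lower and 2 higher). The accessory subunit ATP6AP1 fell by 0.19 on the log2 scale (edgeR adjusted p = 0.00261), and ATP6V0D1, of the membrane sector, by 0.22 (0.013). ATP6V1H, of the cytosolic sector, fell by 0.21 (0.00881). ATP6V0D1 was the gene that fell although its groups overlapped: JNJ replicate 2 had 34.7 CPM and DMSO replicate 2 had 34.1 CPM. It did not pass without JNJ replicate 1 (adjusted p = 0.0589), JNJ replicate 3 (0.0782) or DMSO replicate 3 (0.0637), and the call of ATP6V1H was lost when DMSO replicate 3 was left out (0.0534).

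MCOLN1 was the exception in this class. It encodes the calcium channel TRPML1, whose loss causes mucolipidosis type IV and whose calcium release acts on TFEB through calcineurin. It had 19.8, 20.7 and 21.3 CPM with JNJ, against 16.2, 15.5 and 14.8 CPM with DMSO. The groups did not overlap (log2 fold change 0.41, SE 0.07, edgeR adjusted p = 9.63e-05). MCOLN1 lies on chromosome 19 at 7522626 to 7534009.

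TFEB was the least abundant gene of the set per length, at 0.977 CPM per kb with JNJ and 0.74 CPM per kb with DMSO. It had 6.38, 5.0 and 5.17 CPM with JNJ, against 3.92, 4.31 and 4.3 CPM with DMSO, from 117 to 157 counts per library. It rose by 0.40 on the log2 scale (SE 0.14, edgeR adjusted p = 0.0277), with JNJ replicate 1 the highest. The call did not hold without JNJ replicate 1 (log2 fold change 0.28, adjusted p = 0.166), DMSO replicate 1 (0.0977), DMSO replicate 2 (0.0557) or DMSO replicate 3 (0.0523), or with DESeq2 or upper-quartile scaling. The activity of TFEB depends on its location in the cell, which RNA counts do not measure.

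**Figure D3:**
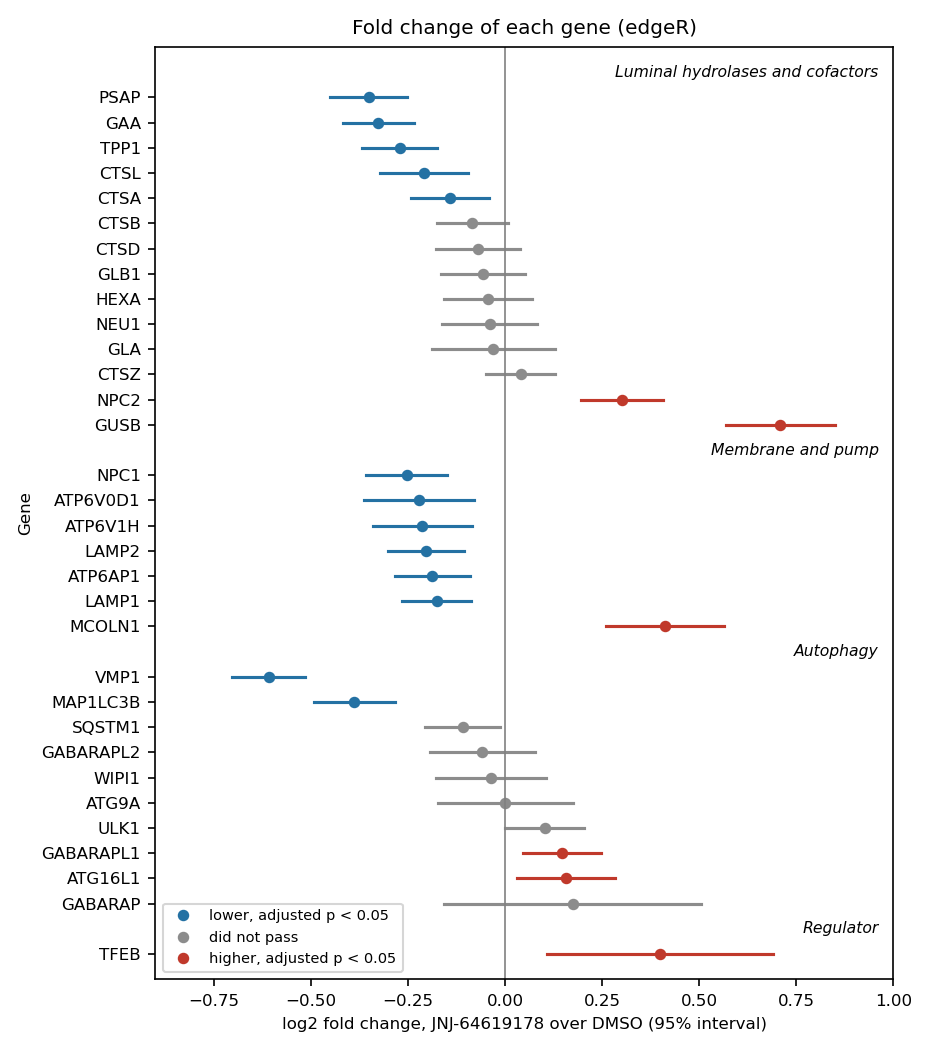
Log2 fold change of JNJ over DMSO with its unadjusted 95% interval from the edgeR fit, for each gene by class (n = 3 libraries each). Genes that rose are red, genes that fell blue and genes that did not pass grey. VMP1 (-0.61) and GUSB (0.71) mark the ends, and 6 of the 7 membrane and pump genes lie below 0.

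Of the 10 autophagy genes 2 fell and 2 rose, with a median log2 fold change of -0.02. These 40.0% called lie near the 37.1% of all genes tested and the 40.8% of protein-coding genes tested. The number that rose was 0 without DMSO replicate 1 or DMSO replicate 2, and 1 without JNJ replicate 1, JNJ replicate 3 or DMSO replicate 3, and the median lay between -0.064 (without DMSO replicate 2) and 0.001 (without JNJ replicate 3) when a library was left out. VMP1, a membrane protein of the endoplasmic reticulum that moves lipids between membrane leaflets and is needed to close off autophagosomes, fell the most. It had 522.7, 569.2 and 528.3 CPM with JNJ, against 825.4, 832.6 and 811.7 CPM with DMSO. No other gene of the set had so wide a gap below the DMSO libraries (log2 fold change -0.61, SE 0.05, edgeR adjusted p = 1.59e-10). VMP1 (ENSG00000062716, chromosome 17, 59707192 to 59842255) contains MIR21 in its annotated exons, and the primary transcript of that microRNA shares its end. MIR21 itself was listed with 0 counts. The table does not separate messages that code for VMP1 from primary transcripts of MIR21 in these exons.

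The LC3 and GABARAP proteins are ubiquitin-like proteins that are joined to lipid on the growing autophagosome and bind cargo receptors there. MAP1LC3B had 56.7, 60.6 and 61.0 CPM with JNJ, against 75.4, 77.4 and 80.7 CPM with DMSO, without overlap (log2 fold change -0.39, SE 0.05, edgeR adjusted p = 1.37e-06). GABARAPL1 had 88.1, 89.5 and 84.3 CPM with JNJ, against 76.9, 78.0 and 81.8 CPM with DMSO (log2 fold change 0.15, SE 0.05, adjusted p = 0.0193). All its JNJ libraries were higher, but the call was lost without DMSO replicate 1 (adjusted p = 0.109) or DMSO replicate 2 (0.101), with upper-quartile scaling (0.158) and with no filter on low counts (0.056). GABARAPL2 had 23.7, 25.4 and 23.3 CPM with JNJ, against 25.5, 24.5 and 25.4 CPM with DMSO, and did not pass (-0.06, 95% interval -0.19 to 0.08).

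GABARAP had 4.11, 5.36 and 4.03 CPM with JNJ, against 3.58, 3.59 and 4.82 CPM with DMSO, and did not pass (0.17, -0.16 to 0.51). Its count is a doubtful measure of the gene, since 691 of its 2266 exonic bases are also annotated to a second protein-coding gene on the same strand that was listed with 0 counts. How the authors counted reads in shared exons was not stated. The near-identical copy MAP1LC3B2 averaged 0.485 CPM with JNJ and 0.736 CPM with DMSO, and its reads may be shared with MAP1LC3B.

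Per length, the summed level of these 4 genes was 42.5 ± 1.35 CPM per kb with JNJ and 44.0 ± 1.48 CPM per kb with DMSO, with GABARAP counted in it. The shares of that sum therefore depend on the doubtful count of GABARAP. MAP1LC3B made up 26.4% ± 1.13 with JNJ and 33.3% ± 0.322 with DMSO, and GABARAPL1 50.3% ± 1.06 with JNJ and 43.9% ± 0.157 with DMSO (SD, n = 3 each). The ratio of MAP1LC3B to GABARAPL1 was 0.495, 0.521 and 0.557 in the JNJ libraries, against 0.754, 0.764 and 0.758 in the DMSO libraries. Since all JNJ libraries were lower for MAP1LC3B and higher for GABARAPL1, this ratio could not overlap between the groups, and it is given as a description.

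**Figure D4:**
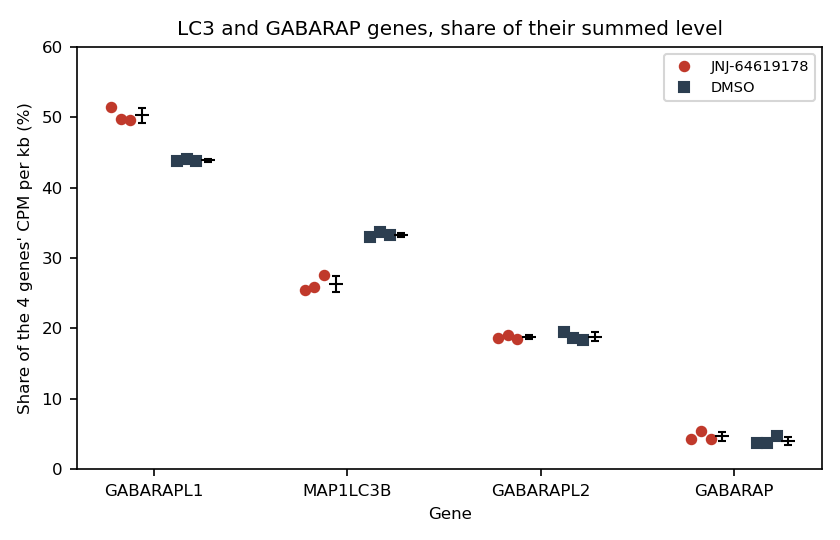
Share of the summed CPM per kb of the 4 LC3 and GABARAP genes held by each gene in each JNJ library (circles) and DMSO library (squares), with mean and SD beside the points (n = 3 each). The sum includes GABARAP, whose count is doubtful. GABARAPL1 lies at 49.6% to 51.5% with JNJ and at 43.8% to 44.0% with DMSO, and MAP1LC3B at 25.5% to 27.6% with JNJ and at 33.0% to 33.6% with DMSO.

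SQSTM1, the cargo receptor p62 that is itself degraded by autophagy, had a mean of 509.4 ± 28.4 CPM with JNJ and 549.7 ± 11.7 CPM with DMSO and did not pass (log2 fold change -0.11, edgeR adjusted p = 0.0693). It passed as lower in 6 of 13 alternatives: with DESeq2 (adjusted p = 0.0412), limma-voom (0.0435), upper-quartile scaling (0.00707) or no filter on low counts (0.0345), and without JNJ replicate 2 (0.00818) or DMSO replicate 3 (0.0399). Of its exonic bases 20.7% overlap MRNIP on the other strand, so its count is uncertain if strand was not used. ATG16L1, which places the lipid-joining machinery on the membrane, rose by 0.16 on the log2 scale (adjusted p = 0.0443). This call was the weakest of the set: it was lost in 10 of 13 alternative settings, including the fits without JNJ replicate 1 (adjusted p = 0.102), JNJ replicate 3 (0.133), DMSO replicate 1 (0.0584), DMSO replicate 2 (0.268) and DMSO replicate 3 (0.0681). The kinase ULK1, which starts autophagy, averaged 206.5 ± 6.39 CPM with JNJ and 192.5 ± 12.3 CPM with DMSO (log2 fold change 0.10, adjusted p = 0.108). The lipid scramblase ATG9A (0.001) and the phosphoinositide-binding WIPI1 (-0.04) did not pass either, and 38.8% and 24.3% of their exonic bases overlap another gene. Apart from GABARAP, the 95% intervals of the 12 genes of the set that did not pass lay between -0.21 and 0.20.

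By level per length, PSAP (320.5 ± 15.4 CPM per kb with JNJ, 409 ± 13.2 CPM per kb with DMSO) stood far above the rest. VMP1 followed with DMSO (119 ± 1.53 CPM per kb), ahead of CTSZ (95.7 ± 0.0907 CPM per kb). With JNJ this order was turned round, at 78.1 ± 3.67 CPM per kb for VMP1 and 98.4 ± 2.4 CPM per kb for CTSZ. SQSTM1 came next in both groups, followed by CTSB, which lay within the SD of NPC2 with JNJ and within its own SD of LAMP1 with DMSO. LAMP1 and ATP6AP1 differed by less than the SD of ATP6AP1 in both groups. With DMSO, GAA and CTSD each lay within the SD of CTSL from CTSL (33.3 ± 2.08 CPM per kb). There GAA (34.9 ± 0.572 CPM per kb) lay above CTSD (33.3 ± 0.0872 CPM per kb) by more than their SDs. The autophagy genes ATG9A and GABARAP and the regulator TFEB were lowest in both groups, with the limit that 38.8% of the exonic bases of ATG9A and 30.5% of those of GABARAP are shared with another gene on the same strand.

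The same machinery outside the set was followed in 7 further lists of 174 genes, 164 of them tested, of which 38 rose and 36 fell. That is 45.1% called, beside 37.1% of all genes tested and 40.8% of the protein-coding genes tested. Among 41 other luminal hydrolases and cofactors 13 fell and 7 rose, with a median log2 fold change of -0.06. The acid ceramidase ASAH1 averaged 113.8 ± 3.67 CPM with JNJ and 160.5 ± 2.76 CPM with DMSO. The acid phosphatase ACP2 (-0.59) and the fucosidase FUCA1 (-0.57) fell too. Of 24 other membrane proteins 7 fell, or 4 without DMSO replicate 2 and 12 with upper-quartile scaling, and 3 rose. The proton and potassium channel gene TMEM175 (0.76) and the lipid phosphatase gene PIP4P1 (0.35) rose, and LAMP3 (-0.53) and the peptide transporter gene SLC15A4 (-0.24) fell. CLN3 rose by 1.18 on the log2 scale, at low levels of 1.05 ± 0.103 CPM with JNJ and 0.459 ± 0.162 CPM with DMSO.

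Of 17 other V-ATPase subunits 3 fell, or 5 with upper-quartile scaling, and 2 rose. With TMM 29.4% of these subunits were called, beside 37.1% of all genes tested. Their median log2 fold change was 0.005, and it was -0.054 with upper-quartile scaling, -0.049 without JNJ replicate 3 and -0.063 without DMSO replicate 1. TCIRG1, an isoform of the large membrane subunit, rose to 247.7 ± 6.9 CPM with JNJ, against 176.4 ± 3.73 CPM with DMSO. The accessory subunit ATP6AP2 fell by 0.43 on the log2 scale, ATP6V0A1 rose (0.25) and ATP6V1B2 fell (-0.20). Among 9 genes that sort enzymes to the lysosome, 5 rose and 1 fell, or 2 with upper-quartile scaling (66.7% called with TMM). GNPTAB, a subunit of the enzyme that makes the mannose 6-phosphate tag, averaged 33.5 ± 1.07 CPM with JNJ and 20.2 ± 0.741 CPM with DMSO, and GNPTG (0.24) and the adaptor genes GGA1 (0.38) and GGA3 (0.35) rose with it.

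Of 30 other core autophagy genes 8 rose and 5 fell, or 43.3% called, beside 37.1% of all genes tested and 40.8% of the protein-coding genes tested. The number that fell was 3 without JNJ replicate 1 or JNJ replicate 2 and 2 without DMSO replicate 2. ATG12, the ubiquitin-like partner of ATG5, rose to 130.1 ± 2.39 CPM with JNJ, against 84.7 ± 3.05 CPM with DMSO. RUBCN, a brake on autophagosome maturation, rose (0.58), as did the tethering factor gene EPG5 (0.47), and ATG16L2, a relative of ATG16L1, fell (-0.67). Of 13 other cargo receptors 4 rose and 2 fell (46.2% called). CALCOCO2 (0.23), CALCOCO1 (0.17) and OPTN (0.17) rose and TAX1BP1 (-0.18) fell. The call of OPTN was lost with upper-quartile scaling (edgeR adjusted p = 0.067). It was also lost when DMSO replicate 1 was left out (0.0561), where 2 receptors rose. Only 1 receptor fell without JNJ replicate 3 or DMSO replicate 2. Among 30 other TFE factors and regulators of mTORC1 9 rose, or 5 with upper-quartile scaling, and 5 fell, or 3 without JNJ replicate 3. With TMM and all libraries 46.7% of this list was called. The folliculin partner FNIP1 (0.42), the mTORC1 inhibitors TSC1 (0.42) and AKT1S1 (0.38) and NPRL2 (0.46), a subunit of GATOR1, the complex that switches off the Rag GTPases upstream of mTORC1, rose.

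**Figure D5:**
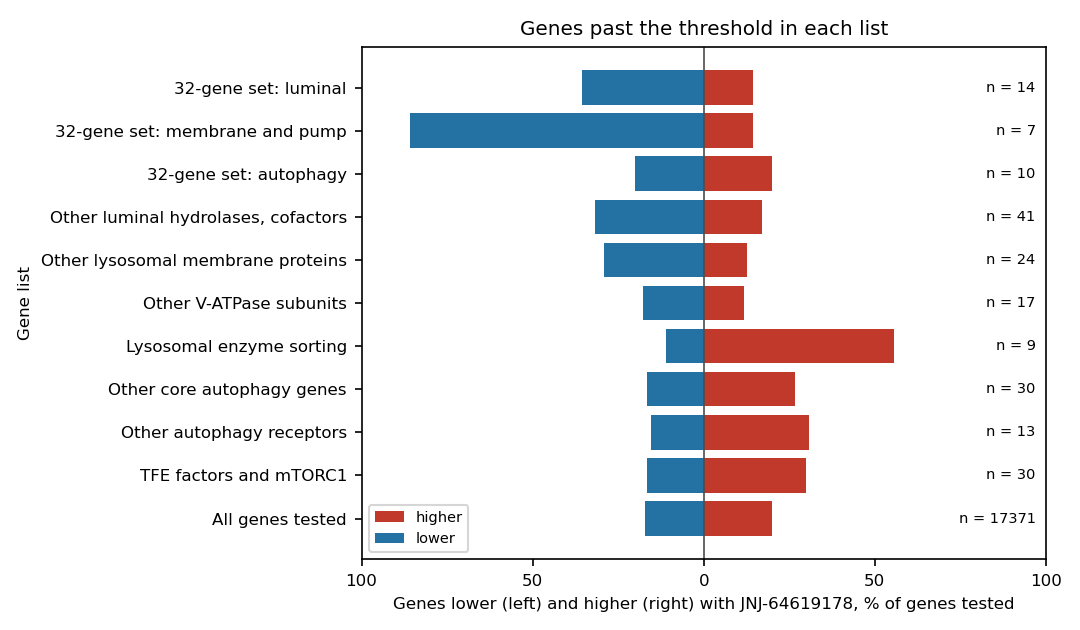
Share of the tested genes of each list that fell (bars to the left, blue) or rose (bars to the right, red) with JNJ at an edgeR adjusted p under 0.05, with the number tested at the right and all 17371 genes in the bottom row. In the membrane and pump class 6 of 7 genes fell, and in the sorting list 5 of 9 rose.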

How the data were processed

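The values are read counts by gene, not normalized, in a single table that the authors deposited for 6 libraries. Per the labels' protocols, libraries were made with a stranded mRNA ligation kit. Per the submitters' processing notes, the tools were STAR 2.7.9a, featureCounts 1.6.0, FastQC 0.11.8, limma and edgeR, whose roles the notes leave out. GRCm39, a mouse build, is named there, but all 60605 genes carry human Ensembl identifiers, and the build used for counting stays uncertain. Not given in the sources used here were the annotation, the strand setting and the handling of shared reads.

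From the 60649 rows, 44 repeated identifiers with a sum of 0 were dropped. Symbols came from a reference table (60463 matched), and positions and exonic lengths from GENCODE 29. Genes were filtered with filterByExpr (minimum count 10, total 15), scaled by TMM and tested with edgeR 4.0.16 (glmQLFit, glmQLFTest) on group alone over 17371 genes. Levels are mean ± SD over 3 libraries, and 95% intervals are unadjusted. R 4.3.3, limma 3.58.1, DESeq2 1.42.0, Python 3.11.15 and scipy 1.17.1 were used. On simulated counts for JNJ over DMSO (17067 genes), edgeR recovered 74.2% of genes changed 1.5-fold and 77.3% of those changed 2-fold, with 9 unchanged genes called. Each step changed 97 genes, far fewer than the 6448 called in the data, so the adjustment of p differs. Changes under 1.5-fold, as in all called members but VMP1 and GUSB, were not simulated.

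Libraries of a group were not duplicates of each other, with a chi-square over its degrees of freedom of 2.71 to 9.24. The members and lists were chosen with earlier results of these data known. All 32 members are named, and values per library are given for called members with a log2 change of at least 0.3, for TFEB and for the LC3 and GABARAP family. In the wider lists the 4 called genes with the smallest p and those past 0.58 are named, except for some that are not reported here. GABARAPL3 matched 2 identifiers and was not used.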

Additional observations from a re-analysis of the deposited data

How the results depend on the processing

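Of the 19 members called, 13 kept their call and direction in all 13 alternatives, and none of the 19 changed sign. The number called higher was 6, and 3 with upper-quartile scaling, and 3 to 6 when a library was left out, with 3 without DMSO replicate 1 and 3 without DMSO replicate 2. The number called lower was 13, between 11 and 15 in the alternatives. With upper-quartile scaling the median log2 fold change was -0.121 for luminal genes and -0.26 for membrane and pump genes. With the same scaling it was -0.076 for autophagy genes and -0.06 over all genes. There GABARAPL1, ATG16L1 and TFEB lost their calls, CTSB and SQSTM1 passed, and the median of the other core autophagy genes was -0.023, against 0.036 with TMM. The split over all genes was 3478 higher and 2970 lower with TMM, and 2800 higher and 4099 lower with upper-quartile scaling. The cause was not tested. With the replicate block 6 members were higher and 13 lower, and no member changed its call. The correlation of deviations between same-numbered libraries was between -0.02 and 0.002, so the numbers were not taken to pair the libraries. DESeq2, limma-voom, RLE scaling and both other filters kept both counts of members within 1.5 times of the main ones. The number called higher was 4 with DESeq2 and with no filter on low counts. ATG16L1 lost its call with DESeq2, limma-voom, RLE scaling and no filter on low counts. TFEB lost its call with DESeq2, and GABARAPL1 with no filter on low counts. SQSTM1 passed as lower with DESeq2, limma-voom and no filter on low counts. The alternatives for a table without counts did not apply. At this depth TFEB and GABARAP had the fewest counts of the members, 95 to 157 per library.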
